A study of Mus musculus with 18 samples.

Results

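The MHC class II and costimulation genes are 10 of the 55487 genes counted in the livers of male C57BL/6J mice and were taken by their symbols. They are the class II chains H2-Aa, H2-Ab1 and H2-Eb1, the loading genes H2-DMa, H2-DMb1 and Cd74, the transactivator Ciita, and the costimulatory genes Cd40, Cd80 and Cd86. Each symbol matched 1 row of the table, and all 10 genes passed the filter on low counts in all 3 comparisons. RNA from 18 livers was sequenced, 1 library per mouse and 6 mice per group. CON-GFP mice received an adeno-associated virus of serotype 8 carrying GFP and ate a purified control diet. FPC-GFP mice received the same GFP virus and ate the FPC diet, named for its fructose, palmitate and cholesterol, and drank water with fructose and glucose. FPC-LIPA mice ate the FPC diet and received a virus carrying LIPA, the human gene of lysosomal acid lipase. Mice were bought at 7 weeks of age, acclimatized for 1 week, injected 1 week before the diet, fed it for 16 weeks and fasted for 4 h before collection. The hepatocyte-directed TBG promoter drove both transgenes, so no group lacks virus, and LIPA on the control diet was not sequenced.

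MHC class II molecules hold peptides from the endosomes on the surface of dendritic cells, B cells and macrophages, including the Kupffer cells of the liver sinusoids, and show them to CD4+ T cells. An alpha and a beta chain assemble in the endoplasmic reticulum with the invariant chain, the product of Cd74, which steers them to the endosome. Proteases there cut the invariant chain down to a fragment that fills the groove, and H2-DM exchanges the fragment for a peptide. Ciita is the coactivator of the genes of the class II chains, the invariant chain and H2-DM, and interferon-gamma is its best known inducer. A T cell that meets its peptide also needs a second signal, which CD80 and CD86 give through CD28, while CD40 on the presenting cell receives CD40 ligand from the T cell.

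The class II and H2-DM genes lie together in the MHC on chromosome 17 of GRCm38, with H2-DMa at 34119541 to 34139101, H2-DMb1 at 34153072 to 34160230, H2-Ab1 at 34257689 to 34269419, H2-Aa at 34282744 to 34287823 on the minus strand and H2-Eb1 at 34305867 to 34316674. Class II promoters carry an X box and a Y box at a fixed spacing, the sites that the factors binding Ciita sit on. RefSeq promoter windows, 250 bases before and 50 after the annotated start, were at hand for 5 of the 10 genes, namely H2-Aa, H2-Eb1, H2-DMa, H2-DMb1 and Cd80. The pair of an X core CCNAGNNAC and, 10 to 40 bases after it on the same strand, a Y core ATTGG was in the window of H2-DMb1 and in 0.514% of the 32851 windows searched on both strands. A second pair, GNAAC followed at the same distance by TGATTGG, was chosen after the sequences were seen, so its presence in them is not a test. Its X part is shorter than the core above. Its Y part contains the Y core and is stricter, in 7.82% of windows against 37.4% for ATTGG. This second pair was in the windows of H2-Aa, H2-Eb1 and H2-DMb1 and in 0.828% of all windows. The bases between its parts numbered 26 in H2-Aa, 25 in H2-Eb1 and 26 in H2-DMb1. Neither pair was in the 2 windows of H2-DMa or in that of Cd80. The 130 bases just upstream of the starts of H2-Aa and H2-Eb1, a chain of each kind, are shown in the direction of transcription with the second pair in capitals. They are chr17:34287824-34287953 on the minus strand and chr17:34305737-34305866 on the plus strand of GRCm38.p6, and both lie before the gene.
H2-Aa: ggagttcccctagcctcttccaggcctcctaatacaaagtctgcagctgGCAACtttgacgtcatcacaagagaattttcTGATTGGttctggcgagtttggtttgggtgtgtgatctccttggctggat
H2-Eb1: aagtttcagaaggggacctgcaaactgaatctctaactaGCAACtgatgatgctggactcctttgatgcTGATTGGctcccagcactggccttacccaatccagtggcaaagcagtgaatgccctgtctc

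Total counts per library ranged from 16632146 to 37739301. Levels are given as CPM, the counts of a gene relative to the TMM-scaled size of its library. Fold changes and adjusted p values come from edgeR's quasi-likelihood test on the 12 libraries of each comparison. A gene was called differentially expressed (DE) where it changed 2-fold or more with an adjusted p under 0.05. Libraries FPC-LIPA 36, 37b and 39 stood apart: 6.49% to 8.16% of their counts fell on 91 ribosomal protein genes, against 1.44% to 2.95% in the other 15. The calls on named genes in FPC-LIPA are therefore also given without them, with 3 libraries in the group, where 0.728% of 15246 genes were DE and higher against FPC-GFP. Scaling by library size alone moved the median log2 fold change of all genes from 0.01 to 0.21 in FPC-GFP against CON-GFP, and the DE genes that were higher from 681 of 1030 to 1054 of 1279. Mouse Lipa was at 247 ± 33.7 CPM (SD, n = 6) in CON-GFP, 340 ± 61.4 in FPC-GFP and 293 ± 51.2 in FPC-LIPA, and it does not check the human transgene. As a check of strain, the row of H2-Ea, whose promoter is deleted in C57BL/6 mice so that no second class II molecule is made, had 0 counts in every library, where 3 counts would be 0.0735 to 0.215 CPM.

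In livers on the control diet, the invariant chain gene was the most abundant of the 10 per length of its main transcript and Cd80 the least. Cd74 was at 32.4 ± 13.7 CPM per kilobase (SD, n = 6), H2-Aa at 24.7 ± 8.84, H2-Ab1 at 19.2 ± 8.66 and H2-Eb1 at 13.9 ± 4.94, and each of these neighbours overlapped the next. A gap followed, since no CON-GFP library had an H2-Eb1 level as low as the highest of H2-DMb1, which was at 3.22 ± 0.750 CPM per kilobase. H2-DMb1 overlapped H2-DMa (1.89 ± 0.752), and H2-DMa overlapped Cd86 (0.858 ± 0.207). Ciita (0.220 ± 0.132), Cd40 (0.188 ± 0.0930) and Cd80 (0.0760 ± 0.0344) lay below every Cd86 value and overlapped their neighbours. The order was the same in FPC-GFP. In FPC-LIPA, Cd86 stood at 7.01 ± 3.92 CPM per kilobase, ahead of H2-DMa at 4.82 ± 2.47, and Cd40 at 1.02 ± 0.431, ahead of Ciita at 0.543 ± 0.212, although both pairs overlapped.

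**Figure D1:**
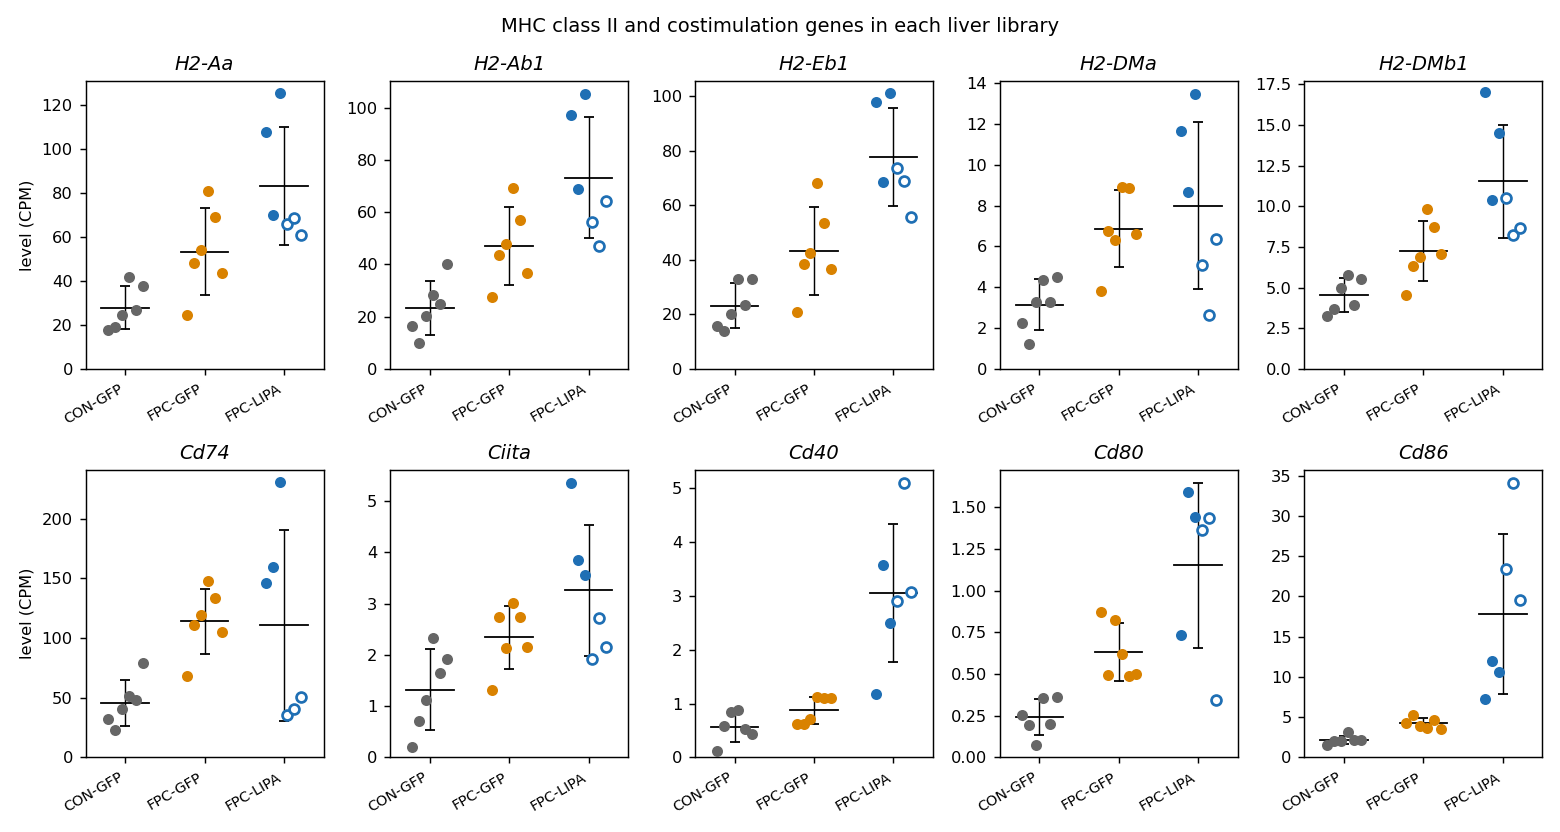
Level of each gene in CPM (linear axis from 0) in the 6 libraries of CON-GFP (grey), FPC-GFP (orange) and FPC-LIPA (blue), with the mean as a line and the SD as a bar. Open circles are FPC-LIPA 36, 37b and 39, which lie at 35.7 to 50.8 CPM for Cd74, below the lowest FPC-GFP library at 68.3, and at 19.5 to 34.1 CPM for Cd86, above all other libraries.

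The first comparison asks what the FPC diet did to these genes under the GFP vector. FPC-GFP livers had more class II and costimulatory RNA: 4 of the 10 genes were DE, all higher (Cd74, Cd80, H2-DMa and H2-Ab1), where 4.76% of all 14307 genes tested were DE and higher. With an adjusted p under 0.05 and no minimum fold, 8 of the 10 rose (background 12.9%), and Ciita and Cd40 did not pass. None fell, where 10.9% of all genes were lower at that threshold. The median log2 fold change of the 10 was 0.95 and that of all genes was 0.01. In 2 of the 10, Cd80 and Cd86, every FPC-GFP library lay above every CON-GFP library (background 5.61%). Cd80 passed the filter on low counts mainly through FPC-GFP, where it was high, so its lack of overlap is no separate support. In bulk tissue, more cells of a type and more RNA per cell cannot be told apart.

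Among the chains, H2-Ab1 encodes the beta chain of I-A, the class II molecule of this strain. It ranged from 9.79 to 40.2 CPM (median 22.5) in CON-GFP and from 27.4 to 69.3 (median 45.7) in FPC-GFP. The groups overlapped, with 4 of the 6 FPC-GFP libraries above every CON-GFP library, at a log2 change of 1.01 (SE 0.28, adjusted p = 0.0168). Its partner H2-Aa, the I-A alpha chain, ranged from 17.5 to 41.9 CPM (median 25.7) in CON-GFP and from 24.4 to 80.9 (median 51.1) in FPC-GFP, and its log2 fold change was 0.94 (SE 0.26, adjusted p = 0.0198). H2-Eb1, a beta chain that C57BL/6 mice transcribe without its alpha partner, ranged from 13.9 to 32.9 CPM (median 21.7) in CON-GFP and from 20.6 to 68.2 (median 40.3) in FPC-GFP. Its log2 fold change was 0.90 (SE 0.26, adjusted p = 0.0225). FPC-GFP 11 was the lowest library of its group for all 3 chains and FPC-GFP 16 the highest. The chains lay on both sides of the 2-fold limit, and H2-Ab1 lost its DE call without CON-GFP 1, 2 or 3 or FPC-GFP 16 or 19, with log2 fold changes from 0.86 to 0.97. The adjusted p of H2-Eb1 passed 0.05 without FPC-GFP 16 or 19, reaching 0.0537. Among the libraries numbered 55 to 68 in the labels, which lack FPC-LIPA 37b, FPC-GFP 20, and mice 1 and 2 of CON-GFP, no chain passed, with log2 fold changes of 0.70 to 0.79 and adjusted p values of 0.0569 to 0.115.

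Of the loading genes, Cd74 changed most. It ranged from 23.2 to 78.98 CPM (median 44.5) in CON-GFP and from 68.3 to 147 (median 115) in FPC-GFP, and only FPC-GFP 11 fell within the control range. Its log2 fold change was 1.32 (SE 0.25, adjusted p = 0.00214), and it stayed DE whichever of the 12 libraries was left out. H2-DMa, the alpha chain of the peptide exchanger, went from 1.23 to 4.47 CPM (median 3.27) in CON-GFP and from 3.83 to 8.89 (median 6.68) in FPC-GFP. Again FPC-GFP 11 alone lay within the control range, and the log2 fold change was 1.12 (SE 0.27, adjusted p = 0.00868). It lost its DE call without CON-GFP 2, the lowest library, at 0.97, and in the libraries numbered 55 to 68, at 0.85. The beta chain H2-DMb1 ranged from 3.23 to 5.79 CPM (median 4.45) and from 4.54 to 9.85 (median 6.96), with a log2 change of 0.68 (SE 0.20, adjusted p = 0.0225). Its adjusted p passed 0.05 without FPC-GFP 16 or 19, reaching 0.0541, and was 0.126 among the libraries numbered 55 to 68. Reads of the paralog H2-DMb2, at 0.195 to 1.24 CPM in these groups, may be shared with it.

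Ciita, the coactivator, ranged from 0.210 to 2.34 CPM (median 1.38) in CON-GFP and from 1.31 to 3.00 (median 2.44) in FPC-GFP. Only 3 FPC-GFP libraries lay above all controls, and the log2 fold change of 0.80 did not pass the test (SE 0.38, adjusted p = 0.137).

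Cd80 and Cd86 encode the ligands of CD28 and CTLA-4. Cd86 ranged from 1.59 to 3.17 CPM (median 2.07) in CON-GFP and from 3.50 to 5.27 (median 4.12) in FPC-GFP, without overlap, and its log2 fold change of 0.96 was just short of 2-fold (SE 0.18, adjusted p = 0.00238). With all 18 libraries in one fit, its adjusted p was 0.0552 and it did not pass. Cd80 ranged from 0.0767 to 0.364 CPM (median 0.227) in CON-GFP and from 0.491 to 0.871 (median 0.560) in FPC-GFP, again without overlap. It had the largest log2 fold change of the 10 at 1.37 (SE 0.34, adjusted p = 0.0107) and the fewest counts, 2 to 65 per library over the series. With no filter on low counts it was at 1.38 (SE 0.40, adjusted p = 0.0259). Cd40, the receptor of CD40 ligand, ranged from 0.126 to 0.872 CPM (median 0.551) in CON-GFP and from 0.617 to 1.11 (median 0.911) in FPC-GFP. The groups overlapped, and its log2 fold change of 0.64 did not pass (SE 0.36, adjusted p = 0.198).

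**Figure D2:**
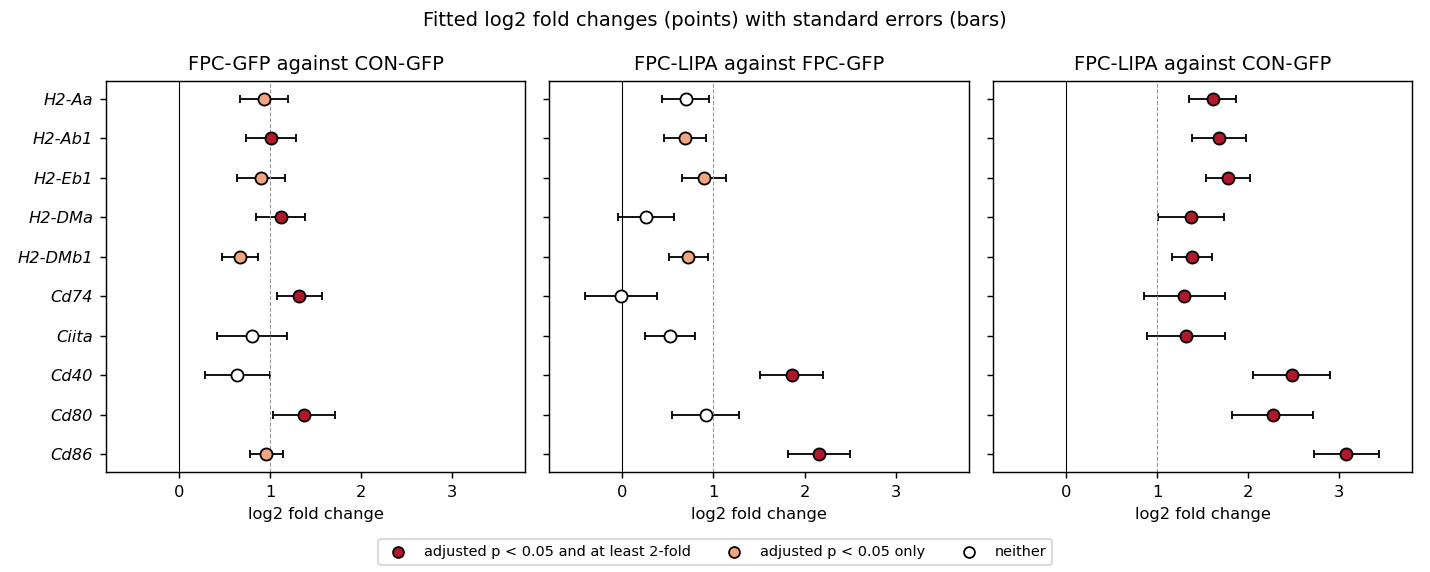
Fitted log2 fold change (x axis) and its standard error (bars) of each gene in the 3 comparisons, with the 2-fold limit dashed. All 10 genes lie past the limit with an adjusted p under 0.05 in FPC-LIPA against CON-GFP, 4 do in FPC-GFP against CON-GFP, and Cd40 and Cd86 do in FPC-LIPA against FPC-GFP, where Cd74 lies at -0.02.

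The second comparison asks what LIPA added on the FPC diet. Here 2 of the 10 genes were DE, Cd86 and Cd40, both higher in FPC-LIPA, where 10.3% of 14620 genes were DE and higher. With an adjusted p under 0.05 alone, 5 of the 10 rose (background 14.4%), namely these and H2-Eb1, H2-DMb1 and H2-Ab1. The median log2 fold change was 0.71, and that of all genes was 0.04. Cd86 and Cd40 were also the 2 genes without overlap between the groups (background 3.36%).

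Cd86 ranged from 3.50 to 5.27 CPM (median 4.12) in FPC-GFP and from 7.24 to 34.1 (median 15.7) in FPC-LIPA. FPC-LIPA 31, 33 and 34 were at 7.24, 12.0 and 10.6 CPM, and FPC-LIPA 36, 37b and 39 at 23.3, 34.1 and 19.5. The log2 fold change was 2.15 (SE 0.34, adjusted p = 0.00842), the largest of the 10. It was 1.25 and still DE without these last 3 libraries (SE 0.19, adjusted p = 0.0184). Beside Ptprc, the gene of the leukocyte marker CD45, Cd86 stood at a ratio of 0.358 to 0.711 in FPC-GFP and of 0.453 to 1.40 in FPC-LIPA, and the ranges overlapped.

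Cd40 ranged from 0.617 to 1.11 CPM in FPC-GFP and from 1.18 to 5.10 (median 2.98) in FPC-LIPA. FPC-LIPA 31 was just above the highest FPC-GFP library and FPC-LIPA 37b was highest. Its log2 fold change was 1.86 (SE 0.35, adjusted p = 0.0110), and it was 1.48 and not called without FPC-LIPA 36, 37b and 39 (adjusted p = 0.0673). Cd80 ranged from 0.491 to 0.871 CPM in FPC-GFP and from 0.346 to 1.59 (median 1.40) in FPC-LIPA. The groups overlapped, since FPC-LIPA 39 lay below every FPC-GFP library and 4 libraries lay above all of them, and the log2 fold change of 0.91 did not pass (SE 0.37, adjusted p = 0.0825). Without FPC-LIPA 39 it was 1.09 and DE (adjusted p = 0.0497), and without FPC-LIPA 36, 37b and 39 it was 1.00 and did not pass (adjusted p = 0.156).

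Of the chains, H2-Eb1 and H2-Ab1 rose, both less than 2-fold, and H2-Aa did not pass. H2-Eb1 ranged from 20.6 to 68.2 CPM in FPC-GFP and from 55.7 to 101 (median 71.2) in FPC-LIPA, with 5 of 6 FPC-LIPA libraries above every FPC-GFP library. Its log2 fold change was 0.90 (SE 0.24, adjusted p = 0.0239). H2-Ab1 ranged from 27.4 to 69.3 CPM and from 47.2 to 105 (median 66.6), at a log2 change of 0.69 (SE 0.23, adjusted p = 0.0484). H2-Aa ranged from 24.4 to 80.9 CPM and from 61.1 to 126 (median 69.4), and its log2 fold change of 0.69 did not pass (SE 0.26, adjusted p = 0.0651). The highest libraries for all 3 chains were FPC-LIPA 31 and 34. These calls were weak: the adjusted p of H2-Ab1 was 0.05 or above in 10 of the 12 fits with a library left out, up to 0.0970, that of H2-DMb1 in 6 and that of H2-Eb1 in 4. Without FPC-LIPA 36, 37b and 39 the log2 fold changes of the chains were 0.94 to 1.06 and none passed, with 3 libraries in the group (adjusted p from 0.0673 to 0.118). Among the libraries numbered 55 to 68, H2-Eb1, H2-DMb1 and H2-Ab1 did not pass either (adjusted p from 0.0800 to 0.0991).

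Of the 2 H2-DM genes, H2-DMb1 passed and H2-DMa did not. H2-DMb1 ranged from 4.54 to 9.85 CPM in FPC-GFP and from 8.25 to 17.02 (median 10.4) in FPC-LIPA, and it rose with a log2 change of 0.73 (SE 0.22, adjusted p = 0.0328). H2-DMa ranged from 3.83 to 8.89 CPM and from 2.66 to 13.5 (median 7.51), with FPC-LIPA 37b below every FPC-GFP library, and its log2 fold change was 0.26 (SE 0.31, adjusted p = 0.546). Without FPC-LIPA 36, 37b and 39 both were higher and neither passed, H2-DMb1 at 0.96 (SE 0.22, adjusted p = 0.0605) and H2-DMa at 0.73 (SE 0.24, adjusted p = 0.135). Ciita ranged from 1.31 to 3.00 CPM and from 1.91 to 5.36 (median 3.14). FPC-LIPA 31, 33 and 34 were above all FPC-GFP libraries, and the log2 fold change of 0.53 did not pass (SE 0.28, adjusted p = 0.166), nor did its 0.87 without FPC-LIPA 36, 37b and 39 (adjusted p = 0.111).

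Cd74 (chromosome 18, 60803848 to 60812652) parted from the chains it serves. FPC-LIPA 31, 33 and 34 had 146, 159 and 230 CPM of it, and FPC-LIPA 36, 37b and 39 had 35.7, 40.7 and 50.8, while FPC-GFP ranged from 68.3 to 147. The last 3 lay within the range of CON-GFP, 23.2 to 78.98 CPM, although their summed H2-Aa, H2-Ab1 and H2-Eb1 was 196, 185 and 181 CPM against 42.5 to 111 in CON-GFP. The log2 fold change of Cd74 was -0.02 with a wide error (SE 0.40, adjusted p = 0.976), and 0.66 without the 3 libraries (SE 0.21, adjusted p = 0.132). The ratio of Cd74 to the summed chains was 0.496 to 0.713 in CON-GFP, 0.675 to 0.944 in FPC-GFP, 0.482, 0.768 and 0.694 in FPC-LIPA 31, 33 and 34, and 0.182, 0.221 and 0.280 in FPC-LIPA 36, 37b and 39. The ratio of H2-DMa to H2-DMb1 was 0.842 to 1.06 in FPC-GFP, 0.333 to 0.838 in CON-GFP and 0.322 to 0.929 in FPC-LIPA, with FPC-LIPA 37b and 36 at 0.322 and 0.486. FPC-LIPA 39, at 0.735, lay above FPC-LIPA 31, at 0.685. FPC-LIPA 36, 37b and 39 are the libraries of high ribosomal protein share, and the part of that share in these ratios was not tested.

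**Figure D3:**
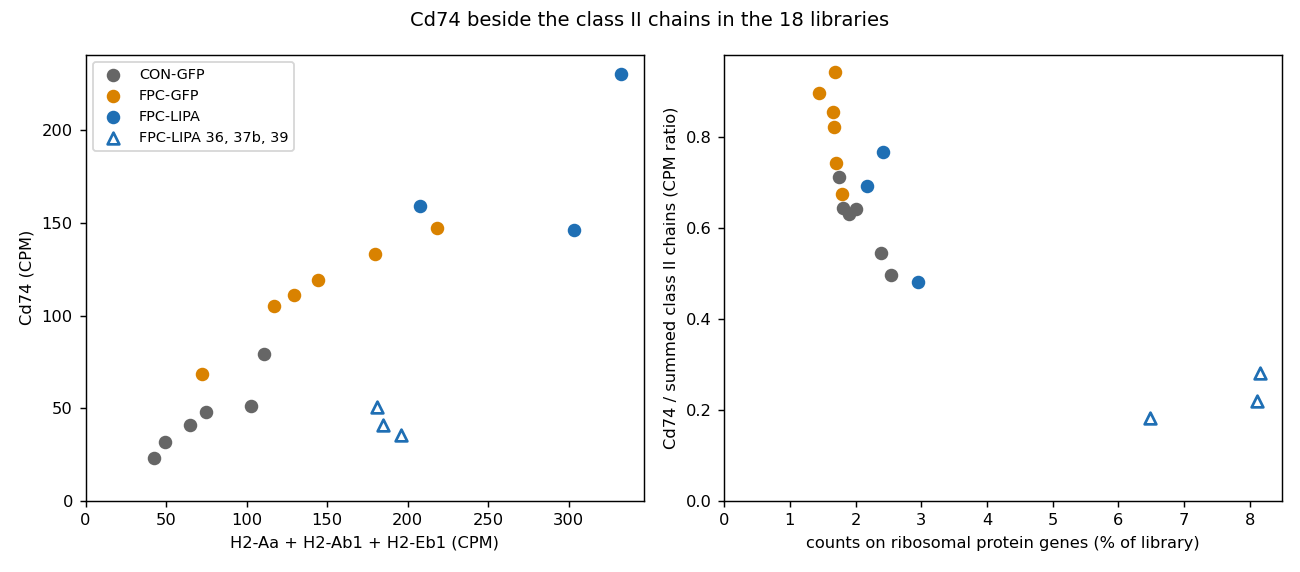
Left, Cd74 against the summed CPM of H2-Aa, H2-Ab1 and H2-Eb1 in the 18 libraries. Right, the ratio of both against the percent of counts on ribosomal protein genes. FPC-LIPA 36, 37b and 39 (open triangles) have ratios of 0.182 to 0.280 and 6.49% to 8.16% ribosomal counts, and the other 15 have ratios of 0.482 or more and at most 2.95%.

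FPC-LIPA against CON-GFP spans both changes and shares its libraries with the other 2 comparisons. All 10 genes were DE and higher in FPC-LIPA, where 11.8% of 14433 genes were DE and higher and 14.7% were higher and 8.20% lower with an adjusted p under 0.05. The median log2 fold change was 1.65 against 0.04 for all genes. The costimulatory genes had the largest values, 3.08 for Cd86 (SE 0.36, adjusted p = 7.21e-05), 2.48 for Cd40 (SE 0.43, adjusted p = 0.00109) and 2.27 for Cd80 (SE 0.45, adjusted p = 0.00264). The chains followed with 1.78 for H2-Eb1, 1.68 for H2-Ab1 and 1.61 for H2-Aa, at adjusted p values from 0.000196 to 0.00126. H2-DMb1 stood at 1.38, H2-DMa at 1.37, Ciita at 1.32 and Cd74 at 1.30. In 6 of the 10 no FPC-LIPA library overlapped CON-GFP (background 5.58%), namely the 3 chains, H2-DMb1, Cd40 and Cd86. The exceptions were H2-DMa through FPC-LIPA 37b, Cd80 through FPC-LIPA 39, Cd74 through FPC-LIPA 36, 37b and 39, and Ciita through FPC-LIPA 36 and 39. Cd74 (adjusted p = 0.0457) lost its call in 8 of the 12 fits with a library left out, up to 0.0998 without FPC-LIPA 34, and Ciita (adjusted p = 0.0380) in 6, up to 0.0792 without FPC-LIPA 31. In the libraries numbered 55 to 68 both were lost, at log2 fold changes of 1.20 for Cd74 (adjusted p = 0.134) and 0.96 for Ciita (adjusted p = 0.108). Without FPC-LIPA 36, 37b and 39 all 10 stayed DE, with log2 fold changes of 1.98 for Cd74 and 2.21 for Cd86. In that fit 8.8% of 15113 genes were DE and higher. Cd80 did not pass the filter on low counts in the fits without FPC-LIPA 33, 34 or 36.

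A list of 20 other class II pathway genes had 18 tested, with a median log2 fold change of 0.22 in FPC-GFP against CON-GFP and 0.23 in FPC-LIPA against FPC-GFP. On the diet, 4 rose and 2 fell with an adjusted p under 0.05, where 12.9% and 10.9% of all genes did, and the DE genes were 2 endosomal proteases. Ctss, cathepsin S, which makes the last cuts of the invariant chain, ranged from 15.4 to 29.2 CPM in CON-GFP and from 38.7 to 66.1 in FPC-GFP, and the log2 fold change was 1.27 (SE 0.16, adjusted p = 0.00020). Lgmn, the asparagine endopeptidase that starts them, ranged from 28.3 to 48.6 and from 64.6 to 98.0 CPM, at 1.12 (SE 0.14, adjusted p = 0.000234). Neither gene overlapped between these groups. Of the most abundant proteases, Ctsb rose by 0.36 on the log2 scale (adjusted p = 0.0410) and Ctsl fell by 0.44 (adjusted p = 0.0485). Of 7 genes of factors that bind the X and Y boxes or sites beside them, 6 did not pass, and Rfxank, a subunit of the RFX complex, fell with a log2 change of -0.66 (SE 0.20, adjusted p = 0.0242). In FPC-LIPA against FPC-GFP, 3 of the 18 rose, Marchf1, H2-Ob and Lgmn, where 14.4% of all genes did, and 15 did not pass. Marchf1 encodes a membrane ubiquitin ligase that sends class II molecules and CD86 from the surface to lysosomes. It ranged from 1.13 to 2.27 CPM in CON-GFP, 1.67 to 2.07 in FPC-GFP and 2.89 to 12.0 in FPC-LIPA, above all other libraries, at 2.09 on the log2 scale (SE 0.32, adjusted p = 0.00842). Without FPC-LIPA 36, 37b and 39 it was at 1.32 and still DE (SE 0.24, adjusted p = 0.0302). On the diet alone it was at 0.10 (adjusted p = 0.757). H2-Ob, a chain of the H2-DM inhibitor H2-O, ranged from 0.560 to 2.24 CPM in FPC-GFP and from 0.790 to 4.48 in FPC-LIPA, at 1.13 (SE 0.38, adjusted p = 0.0480). With the same libraries left out, H2-Ob at 1.34 (adjusted p = 0.101) and Lgmn at 0.48 (adjusted p = 0.192) did not pass. In FPC-LIPA against CON-GFP, 5 of the 18 were DE and higher, where 11.8% of all genes were. They were Marchf1, Lgmn, Ctss, H2-Ob and Ifi30, and all 5 were DE without those libraries too, where 8.8% of all genes were DE and higher.

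Of 22 other costimulation genes, 11 to 13 passed the filter, and CD28 and CTLA-4, the T cell receptors of CD80 and CD86, did not. Cd28 had at most 0.551 CPM and Ctla4 at most 0.144 in any library. On the diet 4 of 11 rose, where 12.9% of all genes did, and 7 did not pass. Cd276, a member of the B7 family, was at 0.844 ± 0.331 CPM (SD, n = 6) in CON-GFP and 3.19 ± 0.923 in FPC-GFP, with a log2 change of 1.90 (SE 0.28, adjusted p = 0.000564). Cd83, which marks mature dendritic cells and counters the action of Marchf1, was at 1.66 ± 0.669 and 3.998 ± 1.38 CPM, at 1.26 (SE 0.27, adjusted p = 0.00465). Icos, a costimulatory receptor of T cells, was at 0.578 ± 0.0937 and 1.30 ± 0.323 CPM, at 1.16 (SE 0.23, adjusted p = 0.00332). The fourth was Vsir, an inhibitory B7 relative, at 0.75 (adjusted p = 0.00190). In FPC-LIPA against FPC-GFP only Cd83 passed, at 0.94 (SE 0.29, adjusted p = 0.0374), where 14.4% of all genes rose. Cd83 was at 0.62 without FPC-LIPA 36, 37b and 39 (adjusted p = 0.291). Lgals9, the most abundant gene of the list, was at 488 ± 69.7 CPM in FPC-GFP and 266 ± 140 in FPC-LIPA, a log2 fold change of -0.84 that did not pass (adjusted p = 0.0522). The sum of the list, which Lgals9 led, was 147 to 195 CPM in FPC-LIPA 36, 37b and 39 and 370 to 478 in the other FPC-LIPA libraries, and without those 3 Lgals9 was at -0.31 (adjusted p = 0.301). In FPC-LIPA against CON-GFP, Cd83 at 2.17 and Icos at 1.76 were DE and higher, as they were without the 3 libraries, at 1.89 and 2.14.

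Class I genes serve the display of peptides from the cytosol. Of 11 tested in each comparison, 3 passed the adjusted p on the diet and 1 in each of the others, all below 2-fold, where 6.87% of all genes were lower in FPC-LIPA against FPC-GFP. The median log2 fold change was 0.05 on the diet, -0.33 in FPC-LIPA against FPC-GFP and -0.22 in FPC-LIPA against CON-GFP. On the diet Tap1 and Tapbp, genes of peptide transport and loading, rose, and the trimming peptidase Erap1 fell, where 12.9% of all genes rose and 10.9% fell. H2-K1, the most abundant heavy chain, fell in FPC-LIPA against FPC-GFP, from 1278 ± 211 CPM to 749 ± 311 with a log2 change of -0.73 (SE 0.25, adjusted p = 0.0470). The class I genes summed to 1686 to 2526 CPM in FPC-LIPA 36, 37b and 39, 2774 to 3681 in the other FPC-LIPA libraries and 3215 to 4494 in FPC-GFP, and without those 3 libraries H2-K1 was at -0.32 and did not pass (adjusted p = 0.336). B2m, the light chain, had a log2 fold change of -0.31 there (adjusted p = 0.306).

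Of 9 genes of the interferon-gamma axis, Ifng itself had at most 0.0929 CPM and was not tested. Of the 7 tested on the diet, 3 rose below 2-fold, where 12.9% of all genes rose. They were Irf8 at 0.79, Irf1 at 0.76 and the receptor chain Ifngr1 at 0.59, with adjusted p values from 0.000352 to 0.00631. In FPC-LIPA against FPC-GFP 0 of 8 passed edgeR's test, 3 had an unadjusted p under 0.05 and 0 passed DESeq2's test. Ifngr2 was at 0.48 (adjusted p = 0.0862) and Jak1 at -0.23 (adjusted p = 0.280). In FPC-LIPA against CON-GFP 5 of 8 rose, where 14.7% of all genes did. Irf8, a transcription factor of dendritic cells and monocytes, was DE there at 1.11 (adjusted p = 0.00577), and at 1.43 without FPC-LIPA 36, 37b and 39 (adjusted p = 0.000825).

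**Figure D4:**
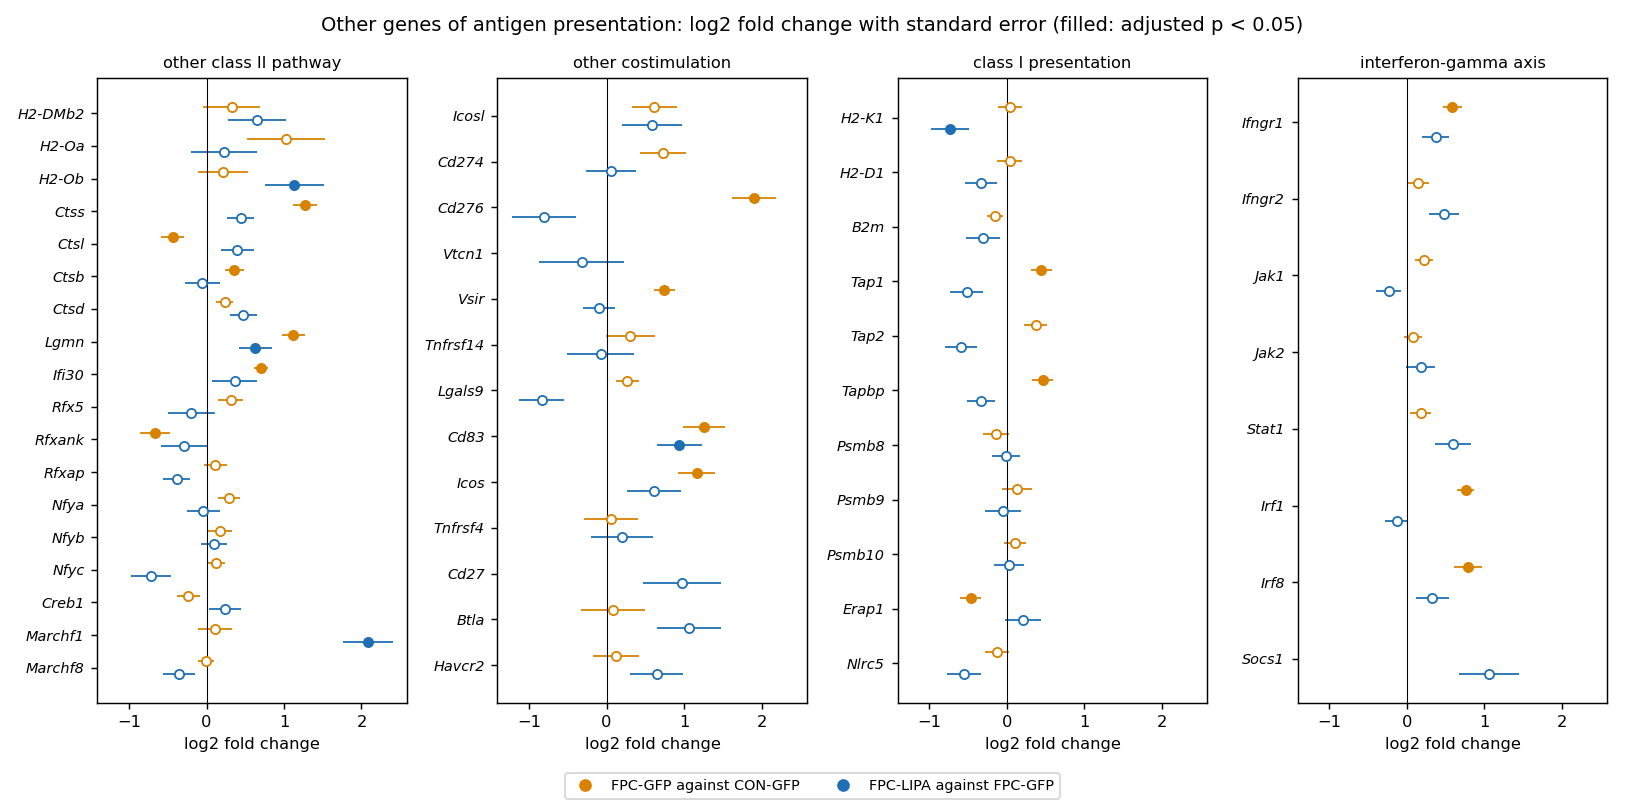
Log2 fold change and standard error of the genes of the 4 other lists that passed the filter, in FPC-GFP against CON-GFP (orange) and FPC-LIPA against FPC-GFP (blue), filled where the adjusted p was under 0.05. Marchf1 lies at 2.09 in the second and 0.10 in the first, and no class I gene reaches 1 in either direction.

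Markers of several cell types that carry class II were higher in the groups where these genes were higher, and their part in the results was not tested. For B cells, 0 of 6 markers passed the adjusted p on the diet, near the share of all genes in a list this short. Their median log2 fold change was 0.51, against 0.01 for all genes. Of 9 conventional dendritic cell markers 3 passed the adjusted p on the diet, all higher, where 12.9% of all genes were higher. On the diet, 8 of 9 Kupffer cell markers were DE and higher, where 4.76% of all genes tested were. Their summed level went from 140 to 284 CPM in CON-GFP to 379 to 653 in FPC-GFP and 497 to 992 in FPC-LIPA, led by Cd5l and Clec4f. In FPC-LIPA against FPC-GFP 1 of the 9 was DE and higher, where 10.3% of all genes were. With an adjusted p under 0.05 alone, 4 of the 9 were higher, where 14.4% of all genes were. DESeq2's test passed 7 of the 9, counting both directions. Another 1, Cd163, was DE and lower, at -1.09 (adjusted p = 0.0482), where 163 of 14620 genes were. The same shares apply to the marker lists that follow. Of 10 monocyte and macrophage markers, 6 were DE and higher on the diet and 5 in FPC-LIPA against FPC-GFP, with sums of 89.6 to 161, 190 to 494 and 585 to 880 CPM. Lyz2, which led them, had a log2 fold change of 1.88 with LIPA (adjusted p = 0.00844), while Spp1 was at 0.36 (adjusted p = 0.528). Conventional dendritic cell markers were DE and higher in 2 of 9 on the diet and 6 of 10 with LIPA, and summed to 11.8 to 20.3, 14.6 to 23.3 and 22.7 to 38.4 CPM. Zbtb46 and Clec9a, the most abundant, did not pass. B cell markers passed in 0 of 6 on the diet, by edgeR, by DESeq2 and at an unadjusted p under 0.05, and were DE in 4 of 8 with LIPA, Cd79b and Cd22 among them, and summed to 3.40 to 10.3, 2.40 to 13.8 and 10.6 to 27.1 CPM. Of 6 plasmacytoid dendritic cell markers 2 were tested with LIPA, Lair1 and Siglech, both DE, and the list summed to 2.12 to 3.89, 3.73 to 6.72 and 10.7 to 20.7 CPM. Lair1 led that sum, with means of 2.00, 4.32 and 13.2 CPM, and was the only 1 tested on the diet. Siglech had means of 0.473, 0.218 and 1.16 CPM, so it was not higher on the diet. Siglech, the B cell marker Ms4a1 and the conventional dendritic cell marker Xcr1 passed the filter with LIPA mainly through FPC-LIPA, where they were high. They had 40, 94 and 51 counts in FPC-GFP against 168, 422 and 119 in FPC-LIPA, so their DE calls are no separate support. T cell markers summed to 4.84 to 6.67, 2.67 to 6.35 and 5.01 to 12.7 CPM. Trbc2 was DE and higher with LIPA, and Cd4 was DE and lower on the diet, with a log2 fold change of -2.04 (adjusted p = 0.00331).

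Endothelial markers had 5 of 8 with an adjusted p under 0.05 on the diet, all higher, where 12.9% of all genes were higher. With LIPA 0 passed by edgeR, 2 had an unadjusted p under 0.05 and DESeq2 called 1. Clec4g and Stab2, the most abundant, passed edgeR's test in neither comparison. The endothelial markers summed to 166 to 269 CPM in CON-GFP, 249.6 to 313 in FPC-GFP and 263 to 387 in FPC-LIPA. Stellate markers, with Dcn and Colec11 most abundant, had 1 of 6 higher on the diet, near the share of all genes. With LIPA 2 of them were higher, where 14.4% of all genes were. Cholangiocyte markers, with Spp1 and Sox9 most abundant, had 1 of 5 on the diet and 0 with LIPA, by edgeR, by DESeq2 and at an unadjusted p under 0.05. The 1 on the diet was Spp1, which is also counted among the monocyte and macrophage markers. In a list this short, 1 gene is near the share of all genes. Hepatocyte markers, led by Alb and Apoa1, summed to 49201 to 100564 CPM over all libraries, and 2 of 6 were DE and lower on the diet, where 349 of 14307 genes were. Of the 4 leukocyte markers, summing to 20.3 to 33.2, 33.6 to 63.4 and 56.2 to 141 CPM, Laptm5 rose on the diet with a log2 fold change of 1.09 (adjusted p = 0.000185) and was at 0.18 with LIPA (adjusted p = 0.725), while Ptprc was at 0.50 on the diet (adjusted p = 0.118) and rose by 1.67 with LIPA (adjusted p = 0.0159). Ptprc was at 69.2 CPM in FPC-LIPA 37b and 13.9 to 22.8 in the other FPC-LIPA libraries. Against FPC-GFP and without FPC-LIPA 36, 37b and 39, Ptprc at 1.14 (adjusted p = 0.0325), Lyz2 at 1.46 (adjusted p = 0.0418) and Lair1 at 1.18 (adjusted p = 0.0250) were DE, and Cd79b, Cd22, Siglech, Trbc2, Cd163 and Dcn did not pass. In that fit 2 of the 9 Kupffer cell markers and 1 of the 10 monocyte and macrophage markers were DE and higher, where 0.728% of all genes were. The calls of the B cell, T cell and conventional dendritic cell markers were lost in it, with median log2 fold changes of 1.42, 0.89 and 0.71, against 1.12, 0.88 and 1.05 in all libraries. More B cell and T cell markers were tested in it, 10 and 9 against 8 and 7, so their medians are not over the same genes. None of these marker lists had a gene at 0 counts in a whole group.

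Within groups, the H2-DM genes followed the mean of the chains and Cd74 from library to library more closely than the costimulatory genes did. As a description, each gene's deviations from its group means in log2 CPM were set against the mean deviation of H2-Aa, H2-Ab1, H2-Eb1 and Cd74 over the 18 libraries, among 12731 genes of at least 1 CPM. The most alike were H2-DMa (Pearson's r = 0.905, Spearman's rho = 0.967) and H2-DMb1 (r = 0.884, rho = 0.839). Emp2, Hexa (a lysosomal hexosaminidase), Hlcs, Cln6, Prss8 and Myo1f (a myosin of leukocytes) followed with r from 0.845 to 0.877 and rho from 0.855 to 0.901. Ciita came at rank 100 with r = 0.754. Cd40 had an r of 0.031 and Cd86 one of -0.362, ranks 7144 and 10192, and Cd80 had 0.164. Cd80, at a mean of 0.675 CPM, was below the 1 CPM limit and has no rank. The part of low counts in the r of Cd80 and Cd40 was not tested. Without FPC-LIPA 36, 37b and 39 the values over 15 libraries were 0.949 for H2-DMa, 0.738 for Ciita, 0.168 for Cd40 and -0.133 for Cd86. The libraries share their depth and cell mixture, and genes are not independent replicates.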

How the data were processed

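Total RNA from 18 mouse livers was sequenced. The authors trimmed the reads, mapped them with HISAT2 2.1.0 to mm10 (GRCm38) and assigned them to genes with Subread, as the submitters' processing notes list, and the deposited values are raw counts without normalization. Strand setting, annotation and treatment of reads with several locations are not given in the sources used here, and both a stranded and an unstranded kit are named. Of 23 columns of counts, 18 were matched to samples by condition and mouse number, and 5 were not used here. For each comparison the 12 libraries were filtered with filterByExpr, scaled by TMM and tested with the quasi-likelihood test of edgeR 4.0.16 in R 4.3.3, with Benjamini-Hochberg adjustment over all genes tested. Standard errors were derived from the F statistic, as the absolute log2 fold change over the root of F. Lengths were those of the principal transcripts of GENCODE M21, found for all 10 genes, and promoters came from RefSeq on GRCm38.p6. The fit was also tested on simulated counts. Alternatives were DESeq2 1.42.0, its size factors, library size alone, no filter on low counts, all 18 libraries in one fit, no minimum fold, removal of GC and length trends, the libraries numbered 55 to 68, and leaving out libraries singly or FPC-LIPA 36, 37b and 39 together, which for the other lists was added after the data were seen.

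The 10 genes, the other lists and the tests were chosen with earlier results of these data known. Named were all 10 genes, H2-Ea, Lipa and Ptprc. Of each pathway list the 2 genes of highest mean CPM and up to 4 DE genes per comparison of largest fold change were named, of each marker list the 2 of highest mean CPM, and the 8 genes most alike in deviation. Genes named beside these (Cd163, Ifi30, Rfxank, Tap1, Tapbp, Erap1, Irf1, Ifngr1, H2-DMb2, Cd28, Ctla4, Ifng, Ms4a1, Xcr1) were chosen after their values were seen. Libraries of a group differed by a chi-square per degree of freedom of 15.4 to 591, so none was the same library sequenced again. That value cannot tell a second library of the same mouse. Each library has its own mouse number in the labels, and errors are taken as over mice. Precision is limited by the counts of Cd80, Cd40 and Ciita, which fell to 2, 3 and 5 in a library.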

Additional observations from a re-analysis of the deposited data

Results flagged for a closer look

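Over the 10 genes and 3 groups, 30 sets of 6 libraries were checked for a library far from the rest of its group, and 1 was found, where chance flags about 1 in 20. Cd86 was at 3.17 CPM in CON-GFP 6, and the other CON-GFP libraries were at 1.59 to 2.15 CPM. Its gap to the next library was 0.646 of the range of the group, above the critical value of Dixon's test for 6 values. CON-GFP 6 also had the highest Ptprc of its group, 10.1 CPM against 4.20 to 7.52 in the others. Without it the log2 fold change of Cd86 in FPC-GFP against CON-GFP was 1.10, past 2-fold (adjusted p = 0.00115).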

How the results depend on the processing

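For FPC-GFP against CON-GFP, the DE genes among the 10 numbered 4, and 8 with no minimum fold, 7 with library size alone, 2 with the libraries numbered 55 to 68 in the labels (leaving out FPC-LIPA 37b, FPC-GFP 20, and mice 1 and 2 of CON-GFP), and 2 to 7 with each library left out in turn (2 without CON-GFP 2 and 7 without CON-GFP 6). All genes called went from 1030 to 3410 with no minimum fold and were 857 to 1148 with a library left out. For FPC-LIPA against FPC-GFP the 2 genes became 5 with no minimum fold, 4 with the GC trend removed, 1 without FPC-LIPA 36, 37b and 39, and 2 to 3 with a library left out. All genes called there went from 1671 to 3102 with no minimum fold, 1016 with library size alone, 96 with the libraries numbered 55 to 68, 116 without FPC-LIPA 36, 37b and 39, and 856 to 2612 with a library left out (856 without FPC-LIPA 36, 902 without 37b, 950 without 39, 2612 without 33, and 1028, 1049 and 1026 without FPC-GFP 11, 12 and 20). For FPC-LIPA against CON-GFP the 10 genes were 7 to 10 with a library left out, and all genes called went from 2176 to 3304 with no minimum fold, 1107 with the libraries numbered 55 to 68, and 1760 to 2685 with a library left out. The cause was not tested.

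The log2 fold change of Cd74 in FPC-LIPA against FPC-GFP, -0.02, turned to 0.13 with the libraries numbered 55 to 68, 0.16 with the GC trend removed, 0.66 without FPC-LIPA 36, 37b and 39, and between -0.36 and 0.16 with a library left out, 0.06 without FPC-GFP 16, 0.03 without FPC-GFP 19, 0.16 without FPC-LIPA 36, 0.14 without FPC-LIPA 37b and 0.12 without FPC-LIPA 39. It passed the test in none of these. With the GC trend removed, the diet change of H2-Ab1 was 0.84 and that of H2-DMa 0.99, and with the length trend removed Cd74 had an adjusted p of 0.0773 in FPC-LIPA against CON-GFP. Over the single genes, 563 values kept their direction and side of the threshold, 29 lost their call, 17 gained one and 8 reversed, all of Cd74. No paired analysis was possible because mouse numbers are unique to each group. Without a library, Cd80 was not tested in 3 fits of FPC-LIPA against CON-GFP. Counts of 2 to 5 limit the lowest levels of Cd80, Cd40 and Ciita.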
